A study of Mus musculus with 18 samples.

Results

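The 40 genes described here are mouse imprinted genes, out of 55414 genes counted in N2A cells, a mouse neuroblastoma line. They were listed by name, and all 40 were matched to a gene of the count table by their symbol in the GENCODE M39 annotation. The list was drawn up with earlier results of these data known, in part because *Grb10* was higher after knockdown, so the values of *Grb10* are given as a description without a test and counts of called genes are over the other members.

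Imprinted genes are expressed mainly from the allele inherited from a single parent, because DNA methylation set in the egg or the sperm marks an imprinting control region on one of the parental chromosomes. Most sit in domains in which paternally and maternally expressed genes are neighbours, and in several domains a long noncoding RNA silences protein-coding genes of the allele it is made from. Many act on growth, and in the nervous system they include regulators of neuronal differentiation and of protein turnover. Counts per gene do not separate the alleles, so all values are totals over both.

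N2A cells were transfected for 72 h with 1 of 6 siRNAs, and 3 libraries of rRNA-depleted total RNA were sequenced per siRNA, 18 in all. Scramble KD (a control siRNA), *Fmr1* KD (the RNA-binding protein FMRP, a repressor of translation) and *Zfp598* KD (a ubiquitin ligase that recognizes collided ribosomes) were each made with 2 siRNAs, called siRNA A and siRNA B, so a condition holds 6 libraries. The study looked for transcripts that rise at least 2-fold in both knockdowns, which it took as putative targets of mRNA decay stimulated by FMRP. All groups are the same line without other treatment, and with 2 siRNAs per target an effect of the knockdown and an effect of a siRNA's own sequence cannot be told apart where the siRNAs of a target differ.

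*Fmr1* was at 15.7 to 27.5 CPM (counts scaled to the size of the library) in *Fmr1* KD and at 51.1 to 68.7 in Scramble KD, and *Zfp598* was at 32.2 to 48.7 in *Zfp598* KD and at 103 to 128 in Scramble KD, without overlap. Total counts ranged from 7674724 to 15414590, and the shallowest libraries, *Zfp598* siRNA A replicates 3 and 2, had 25.8% and 15.2% of their counts on a single feature against 5.00% to 11.1% elsewhere. Of 15 markers of the neuroblastoma line, 12 had a median over 1 CPM, with *Tubb3* among them, while *Nefl* had a median of 0. The fibroblast gene *Lum*, the glial gene *Olig1* and the immune gene *Itgam* had 0 counts, while *Fn1* and *Pdgfrb* of the fibroblast list were expressed throughout. *Fmr1* siRNA B replicate 1 stood apart: 10 of 14 pluripotent stem cell markers in the table (among them *Zfp42*, with 102 counts against at most 1 in any other library, and *Nanog*, with 110 against at most 8) and 3 of 4 Y-linked genes had 10 or more counts and over 3 times the CPM there of any of the other 17 libraries. *Lin28a*, *Dppa2* and *Dppa4* of the stem cell list were expressed in every library. In the Results, most tests of single members that use this library are given with and without it. In the additional observations many are given with it only. The labels only number the libraries of a siRNA, and the study's methods describe the knockdown as done in triplicate with each siRNA, so p-values measure the spread between knockdowns in the same line.

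Expression of the imprinted genes in N2A cells spanned the range from none to the top of the transcriptome. A member was called measured when it passed the filter on low counts that left 17901 genes to test, and 30 of 40 did. Per kilobase of exon, the scale on which genes can be compared, the most abundant members in Scramble KD were *Mest* (45.3 CPM per kilobase), an enzyme of the alpha/beta hydrolase fold, *Peg10* (42.2), a gene derived from a retrotransposon whose mRNA is read with a ribosomal frameshift, and *Peg3* (40.6), a zinc finger protein. These are levels that 97.0%, 96.7% and 96.6% of the tested genes do not exceed. *Blcap* (29.8), *Gnas* (25.5), which encodes the stimulatory G protein subunit, *Impact* (22.2), an inhibitor of the activation of the eIF2alpha kinase GCN2, and *Copg2* (15.7), a subunit of the COPI vesicle coat, followed. The means of *Mest*, *Peg10* and *Peg3* lay closer together than the Scramble KD libraries of any one of them, so their order is not resolved.

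Another 11 measured members lay between 2.80 and 12.4 CPM per kilobase. They were *Peg13*, *Mkrn3*, *Ube3a*, *Nap1l5*, *Nnat*, *Nap1l4*, *Sgce*, *Trappc9*, *Ppp1r9a*, *Snrpn* and *Kcnq1ot1*, the long noncoding RNA that silences its own domain in cis. Below them, *Rtl1*, *Usp29*, *Dlk1*, *Slc22a18*, *Igf2r*, *Airn*, *Rian*, *Magel2*, *Meg3*, *Zim1*, *Mirg* and *Grb10* had 0.0372 to 1.11 CPM per kilobase. The maternally expressed noncoding RNAs *Meg3*, *Rian* and *Mirg* were thus present but low, with 880, 4948 and 260 counts over the 18 libraries, and *Grb10* had 306. Per kilobase in Scramble KD, *Cdkn1c* (0.161), *H19* (0.127) and *Phlda2* (0.0689), which did not pass the filter, lay above *Grb10* (0.0372).

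The growth factor gene *Igf2*, with 9 counts in all, and its noncoding neighbour *H19*, with 71, were among the 10 members that did not pass the filter. The others were the growth inhibitors *Cdkn1c* (80 counts) and *Phlda2* (31), *Ndn* (21), *Peg12* (8), the transcription factor *Plagl1* (50), the amino acid transporter *Slc38a4* (94), *Asb4* (1) and *Snurf* (0). A count of 3, taken as the limit that a count of 0 allows, corresponds to 0.192 to 0.534 CPM in these libraries, for counting error alone. *Snurf* has no exon base outside those of *Snrpn* (6552 counts) and of the read-through gene *Gm38393* (14885 counts), so its 0 does not show that it was silent. Its values, and the split of reads between *Snrpn* and *Gm38393*, are uncertain.

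**Figure D1:**
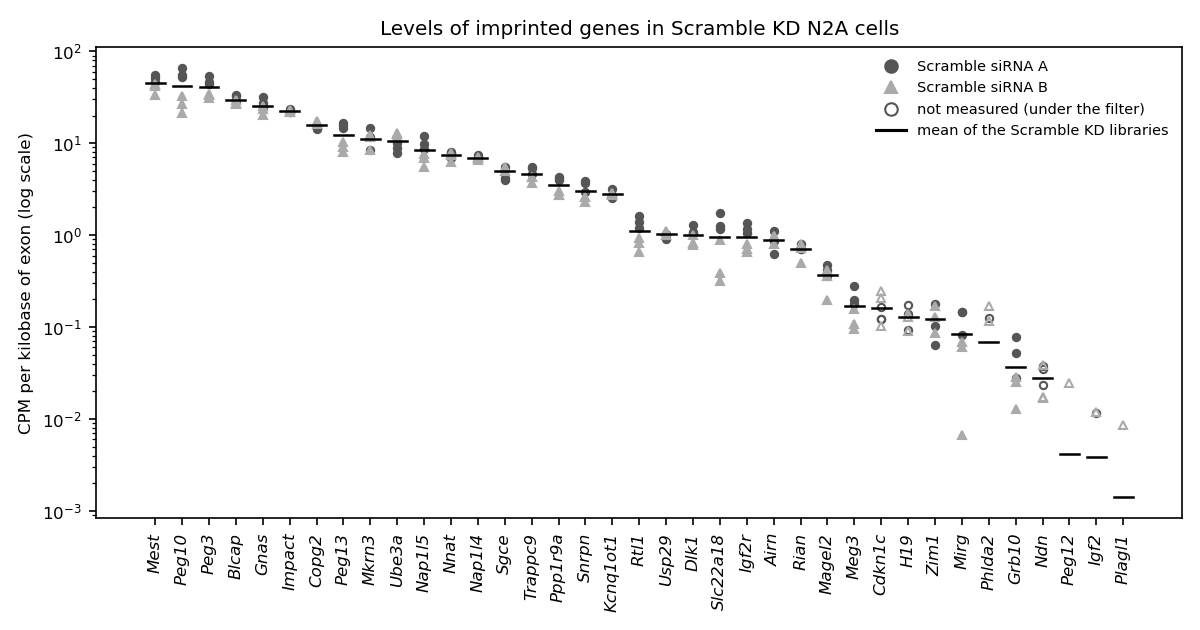
Levels of the imprinted genes in the 6 Scramble KD libraries, as CPM per kilobase of exon on a log axis, with a circle or triangle per library above 0 and a line at the mean over the 6 (open symbols: members under the filter on low counts). *Mest*, *Peg10* and *Peg3* lead at 45.3, 42.2 and 40.6 on average, and *Slc38a4*, *Asb4* and *Snurf*, at 0 in these libraries, are not drawn.

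Several members of low expression had most of their counts, or their highest value, in *Fmr1* siRNA B replicate 1. *Slc38a4* had 94 counts there (6.34 CPM) and 0 in each of the other 17 libraries, and *Plagl1* had 48 of its 50 counts there (3.24 CPM). *Peg12* had 7 of its 8. *Meg3* was at 16.7 CPM in that library and at 1.04 to 5.37 in the other 17, and *Rian* was at 47.0 against 10.7 to 25.4. *Mirg* was at 3.84 against 0.0639 to 2.03. *Grb10* did not have its highest value there: it was at 4.11, or 0.99 times the highest other library, against 0.700 and 0.343 in the other *Fmr1* siRNA B libraries. The library had the highest CPM of the 18 for 10 of 40 members, or 25%, with members under the filter included. Among the 30 measured members it was the highest for 6, or 20.0%, against 5.73% of all tested genes. For *Rtl1*, *Ppp1r9a* and *Igf2r* among these 6, its CPM was only 1.00, 1.01 and 1.12 times that of the next library. Whether the stem cell and Y-linked transcripts of this library and the high values of these members share a source was not tested.

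**Figure D2:**
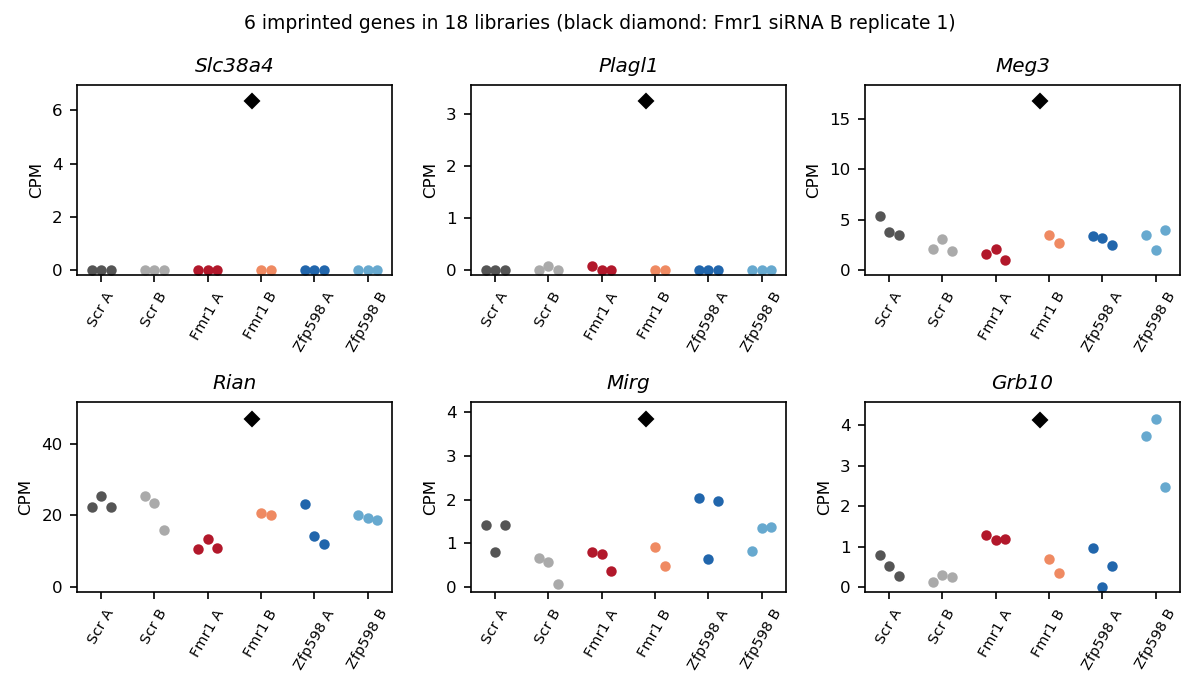
CPM of *Slc38a4*, *Plagl1*, *Meg3*, *Rian*, *Mirg* and *Grb10* in each of the 18 libraries, grouped by siRNA, on linear axes (Scr: Scramble). The black diamond, *Fmr1* siRNA B replicate 1, is the highest point in 5 panels and lies beside the 3 *Zfp598* siRNA B libraries in that of *Grb10*.

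Across the 6 siRNAs the imprinted genes varied, as did most genes. The edgeR quasi-likelihood test for any difference among the 6 groups called 25 of the 29 members at an adjusted p under 0.05 (Benjamini-Hochberg over all tested genes), where 63.3% of all tested genes were called, and *Mirg*, *Sgce*, *Nap1l4* and *Nnat* were not called. Without *Fmr1* siRNA B replicate 1 the count was 24, since *Zim1* lost its call (adjusted p = 0.0593 in place of 0.0434). The largest group difference of a member had a median of 0.97 on the log2 scale, against 0.75 over all tested genes. Summed over the members, the level was 2523 to 2864 CPM with Scramble siRNA B, 3157 to 3435 with Scramble siRNA A and 3504 to 3604 with *Zfp598* siRNA B. In these bulk libraries, fewer cells that express a gene and less RNA per cell cannot be told apart.

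**Figure D3:**
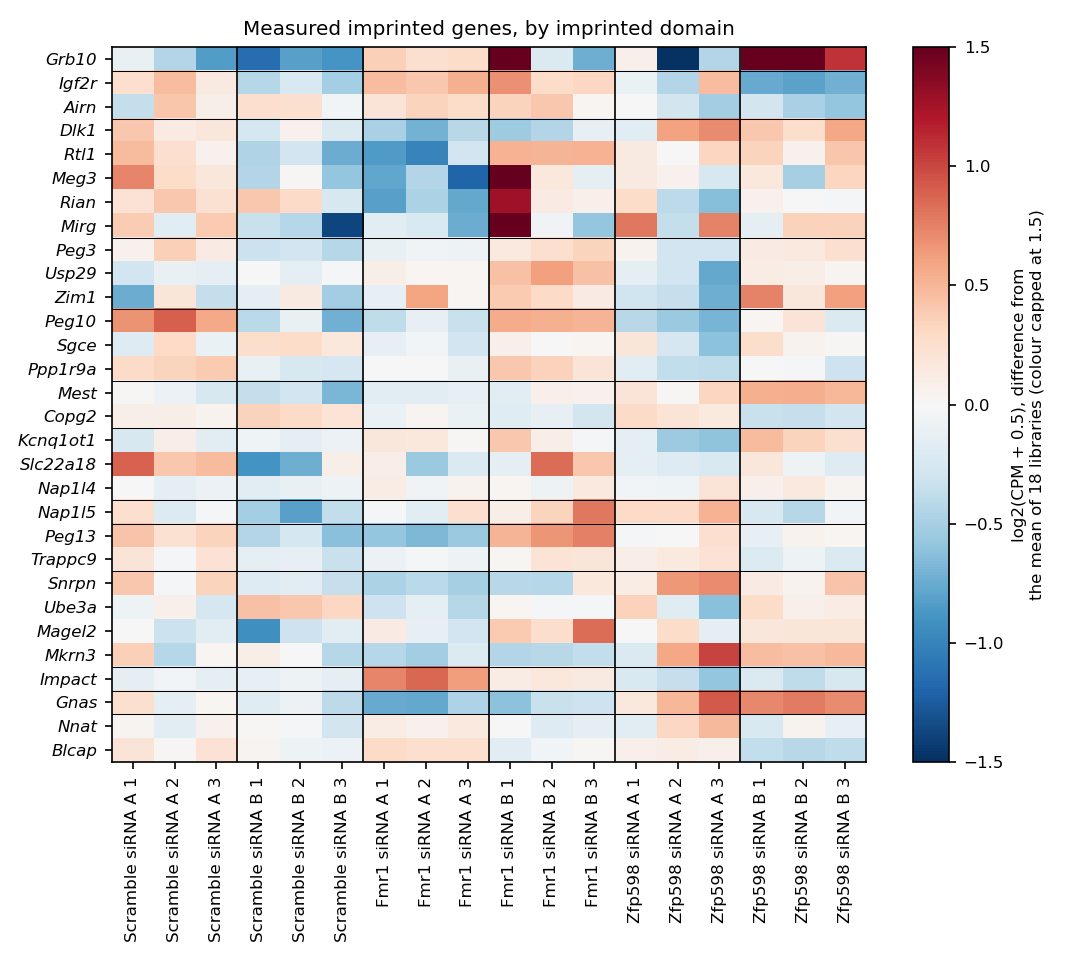
Heat map of the 30 measured imprinted genes, ordered by imprinted domain, in 18 libraries, as log2(CPM + 0.5) minus the gene's mean over the libraries, with red above and blue below that mean. Libraries of the same siRNA resemble each other in *Impact*, *Peg10* and *Peg13*, and *Fmr1* siRNA B replicate 1 stands out in *Meg3*, *Rian* and *Mirg*. In *Grb10* that library is high together with those of *Zfp598* siRNA B.

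The control siRNAs set the scale for what follows. Between Scramble siRNA B and Scramble siRNA A, edgeR called 2 of 29 members higher and 11 lower, with a background of 22.7% of tested genes (10.4% higher and 12.2% lower). The median log2 difference was -0.33 over the members and 0.00 over all tested genes. Those lower with Scramble siRNA B were *Igf2r*, *Rtl1*, *Peg3*, *Peg10*, *Ppp1r9a*, *Mest*, *Slc22a18*, *Nap1l5*, *Peg13*, *Trappc9* and *Snrpn*, and *Copg2* and *Ube3a* were higher. The count fell to 7 without Scramble siRNA A replicate 1 and to 8 without Scramble siRNA B replicate 1 or 2. Markers of the neuroblastoma line moved with this difference: their summed level was 1086 to 1208 CPM with Scramble siRNA B and 1676 to 1819 with Scramble siRNA A, and 7 of the 12 tested markers were lower and none higher. Summed fibroblast markers moved the opposite way, at 356 to 415 CPM with Scramble siRNA B and 208 to 309 with Scramble siRNA A. So did the summed stem cell markers, at 149 to 164 and 97.3 to 103 in the same order. Of 4 tested fibroblast markers, however, *Fn1* was called higher and 2 were called lower, with a median log2 difference of -0.39. *Lin28a*, higher, was the only call among 5 tested stem cell markers. Summed glial markers were lower with Scramble siRNA B, at 22.3 to 26.1 CPM against 28.0 to 34.4. The part of these lists in the result was not tested. Because each KD siRNA was compared with the Scramble siRNA of its letter, those comparisons share these control libraries. The labels give the letters only and do not say that siRNAs of the same letter belong together, so this match is a choice.

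With both siRNAs of a target pooled, 6 libraries against 6, 2 of 29 members, or 6.90%, passed the test in each knockdown. In *Fmr1* KD *Impact* was called higher and *Gnas* lower, 2 of 29 members, with a background of 6.54% of tested genes (2.73% higher and 3.80% lower), and in *Zfp598* KD *Mest* and *Gnas* were called higher and none lower, with a background of 1.96% (0.916% higher and 1.04% lower). None of these changes exceeded 2-fold, while 1.00% and 0.464% of tested genes were called with a change over 2-fold. The median log2 change of the members was 0.11 and 0.03 in the same order, against 0.00 and 0.01 over all tested genes.

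*Impact* was higher in *Fmr1* KD. Its level was 189, 202 and 187 CPM with Scramble siRNA A and 189, 197 and 188 with Scramble siRNA B. It was 345, 376 and 320 with *Fmr1* siRNA A and 224, 230 and 228 with *Fmr1* siRNA B. The 6 *Fmr1* KD libraries all lay above the 6 Scramble KD libraries, and the log2 fold change was 0.58 (SE 0.12, edgeR adjusted p = 0.00592). Without *Fmr1* siRNA B replicate 1 it was 0.65 (adjusted p = 0.0035). By siRNA, the rise was 0.85 (SE 0.09) with siRNA A and 0.25 (SE 0.09) with siRNA B, and the rise with siRNA B was smaller, by a log2 difference of -0.60 (adjusted p = 0.0011), or -0.58 without that replicate (adjusted p = 0.00379). The rise with siRNA B had an edgeR adjusted p of 0.0402, and it lost the call whichever of its 6 libraries was left out, at 0.0628 without replicate 1 of *Fmr1* siRNA B. In *Zfp598* KD *Impact* was at 176, 163 and 139 CPM with siRNA A and 178, 158 and 175 with siRNA B, below every Scramble KD library, with a log2 fold change of -0.22 (SE 0.12) that edgeR did not call (adjusted p = 0.344). With *Zfp598* siRNA A alone it was called lower (-0.27, adjusted p = 0.0447), a call lost in 5 of 6 fits that left out a library, with adjusted p-values up to 0.167.

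*Gnas* differed in opposite directions in the KD conditions. Its level in Scramble KD was 382, 292 and 330 CPM with siRNA A and 284, 303 and 246 with siRNA B. In *Fmr1* KD it was 190, 190 and 234 with siRNA A and 210, 255 and 259 with siRNA B. The ranges overlapped at 246 to 259 CPM only, and the log2 fold change was -0.46 (SE 0.13, edgeR adjusted p = 0.0332). The call was lost on leaving out any of 8 of the 12 libraries: *Fmr1* siRNA A replicate 1, 2 or 3 (adjusted p = 0.0854, 0.0813 and 0.0571), *Fmr1* siRNA B replicate 1 (0.0677), Scramble siRNA A replicate 1 or 3 (0.0769 and 0.0631) and Scramble siRNA B replicate 1 or 2 (0.0518 and 0.063). In *Zfp598* KD *Gnas* was at 360, 456 and 612 CPM with siRNA A and 532, 554 and 528 with siRNA B, a log2 fold change of 0.73 (SE 0.13, edgeR adjusted p = 0.00609). With *Zfp598* siRNA A the higher values were those of the shallow replicates 2 and 3, while replicate 1 lay within the range of Scramble siRNA A. Without replicates 2 and 3, an alternative chosen after seeing the data, the log2 fold change with that siRNA was 0.10 in place of 0.51 (adjusted p = 0.774 in place of 0.0278). *Gnas* shares 1112 exonic bases with *Gnasas1* on the opposite strand, and it holds several transcripts with different imprinting that a count per gene does not separate.

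*Mest* was higher in *Zfp598* KD. Its level was 441, 411 and 371 CPM with Scramble siRNA A, 342, 357 and 271 with Scramble siRNA B, 502, 444 and 546 with *Zfp598* siRNA A and 636, 639 and 617 with *Zfp598* siRNA B. All 6 *Zfp598* KD libraries lay above the 6 of Scramble KD, and the log2 fold change was 0.62 (SE 0.11, edgeR adjusted p = 0.00858). It was 0.29 (SE 0.10, adjusted p = 0.0736) with siRNA A and 0.96 (SE 0.10, adjusted p = 1.1e-06) with siRNA B, and the siRNAs differed by 0.68 (adjusted p = 0.00194). In *Fmr1* KD it was at 389 to 460 CPM, with a log2 fold change of 0.18 that did not pass (adjusted p = 0.373, and 0.20 with adjusted p = 0.364 without *Fmr1* siRNA B replicate 1).

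Not overlapping between the 6 KD and the 6 Scramble KD libraries were 3 members in *Fmr1* KD, *Impact* and *Usp29* above and *Copg2* below, and 2 in *Zfp598* KD, *Mest* above and *Impact* below. The share of tested genes that did not overlap was 5.98% and 1.87%. *Usp29*, of a ubiquitin-specific protease family, was at 16.3 to 19.9 CPM in Scramble KD, 21.3, 20.4 and 20.4 with *Fmr1* siRNA A and 27.2, 30.7 and 27.2 with *Fmr1* siRNA B. Its pooled log2 fold change of 0.41 (SE 0.14) had an edgeR adjusted p of 0.0804, and 0.142 without *Fmr1* siRNA B replicate 1. *Copg2* was at 161 to 196 CPM in Scramble KD and 128 to 159 in *Fmr1* KD, a log2 fold change of -0.30 (SE 0.11, adjusted p = 0.104, and -0.29 with adjusted p = 0.163 without that replicate).

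When the counts of the libraries of a siRNA were summed, so that 2 siRNAs stood against 2, none of the 4 pooled calls passed, with edgeR adjusted p-values of 0.999 (*Fmr1* KD) and 1.00 (*Zfp598* KD). In that fit, the members that passed an unadjusted p under 0.05 numbered 1 for *Fmr1* KD and 3 for *Zfp598* KD.

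**Figure D4:**
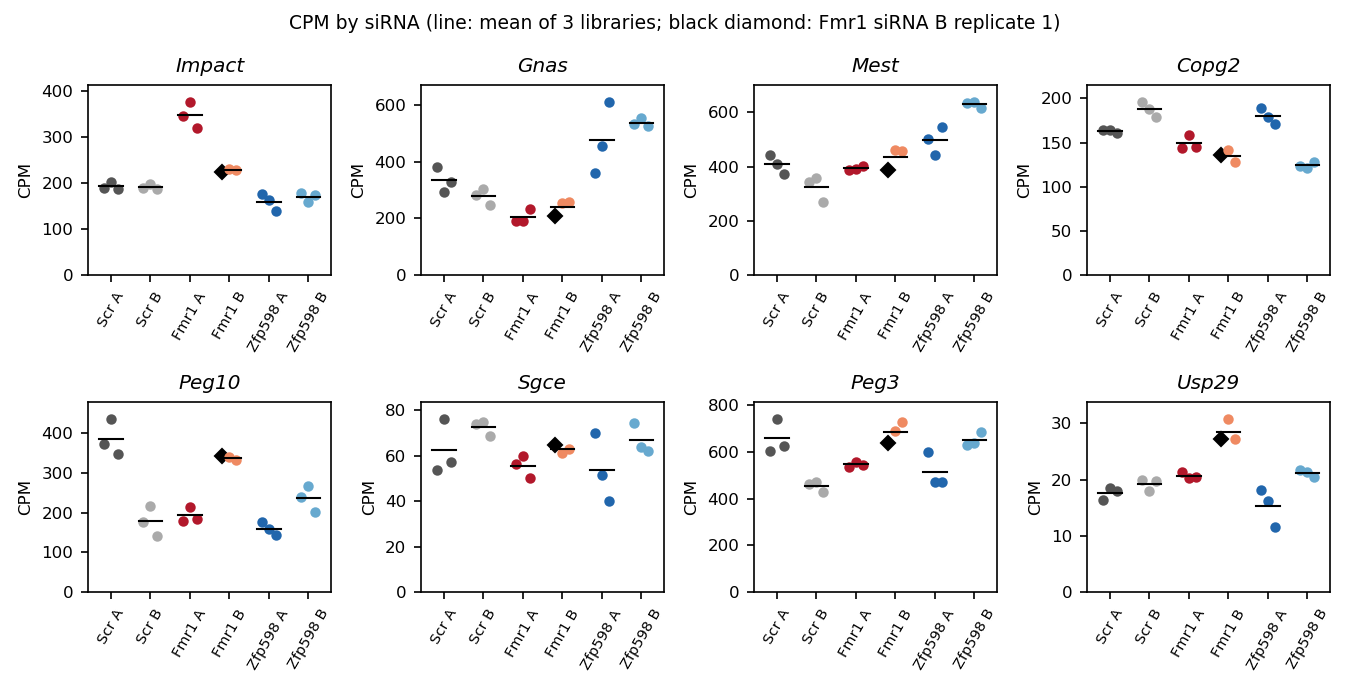
CPM of 8 imprinted genes by siRNA on linear axes from 0, with a point per library and a line at the mean of 3 (Scr: Scramble; black diamond: *Fmr1* siRNA B replicate 1). *Impact* is highest with *Fmr1* siRNA A, *Gnas* and *Mest* with *Zfp598* siRNA B, and *Peg10* is high with Scramble siRNA A and *Fmr1* siRNA B, where its neighbour *Sgce* is not.

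Each siRNA against the Scramble siRNA of its letter gave more calls, and their directions differed between siRNAs of the same target. With *Fmr1* siRNA A, 1 member was higher and 10 lower (background 23.6%, with 10.0% higher and 13.6% lower), and with *Fmr1* siRNA B 15 were higher and 1 lower (background 22.7%, with 11.3% in each direction). Of the 11 members called lower in Scramble siRNA B than in Scramble siRNA A, 10 were higher with *Fmr1* siRNA B and 7 were lower with *Fmr1* siRNA A. Against all 6 Scramble KD libraries, *Peg3*, *Ppp1r9a* and *Slc22a18* lost their call with *Fmr1* siRNA A. *Mirg*, *Slc22a18* and *Trappc9* lost theirs with *Fmr1* siRNA B. The median log2 change of the members was -0.20 with *Fmr1* siRNA A and 0.43 with siRNA B, with 0.01 and 0.00 over all tested genes. *Zfp598* siRNA A gave 1 higher and 4 lower (background 11.9%, with 6.30% higher and 5.64% lower), a count that moved to 2 without Scramble siRNA A replicate 2 or *Zfp598* siRNA A replicate 2, to 3 without Scramble siRNA A replicate 3 and to 11 without *Zfp598* siRNA A replicate 1. *Zfp598* siRNA B gave 8 higher and 3 lower (background 26.8%, with 12.4% higher and 14.4% lower). Against all 6 Scramble KD libraries it gave 6 higher and 4 lower, and *Dlk1*, *Rtl1*, *Peg13* and *Peg10* were no longer called (edgeR adjusted p = 0.0991, 0.0526, 0.806 and 0.339), with *Peg10* at -0.15 in place of 0.40. Of the 16 calls with *Fmr1* siRNA B, 13 held without its replicate 1, and *Meg3*, *Mirg* and *Impact* did not. The summed markers of the neuroblastoma line, against their controls at 1676 to 1819 CPM (Scramble siRNA A) and 1086 to 1208 (Scramble siRNA B), were lower with *Fmr1* siRNA A, at 1197 to 1315, and higher with *Fmr1* siRNA B, at 1345 to 1537, and with *Zfp598* siRNA B, at 1384 to 1556, without overlap. With *Zfp598* siRNA A they were at 1528 to 1789. Their part in these counts was not tested.

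Whether the siRNAs of a target differed in their effect was tested directly. The *Fmr1* KD effect differed between siRNA B and siRNA A in 15 of 29 members, 13 higher and 2 lower with siRNA B (background 21.8%, with 12.2% higher and 9.65% lower), and the *Zfp598* KD effect in 10, 8 higher and 2 lower with siRNA B (background 21.9%, with 10.1% higher and 11.9% lower). Without *Fmr1* siRNA B replicate 1, 14 of the 15 still passed and *Mirg* did not. Both Scramble siRNAs enter each of these differences, so the difference between the controls is part of them.

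**Figure D5:**
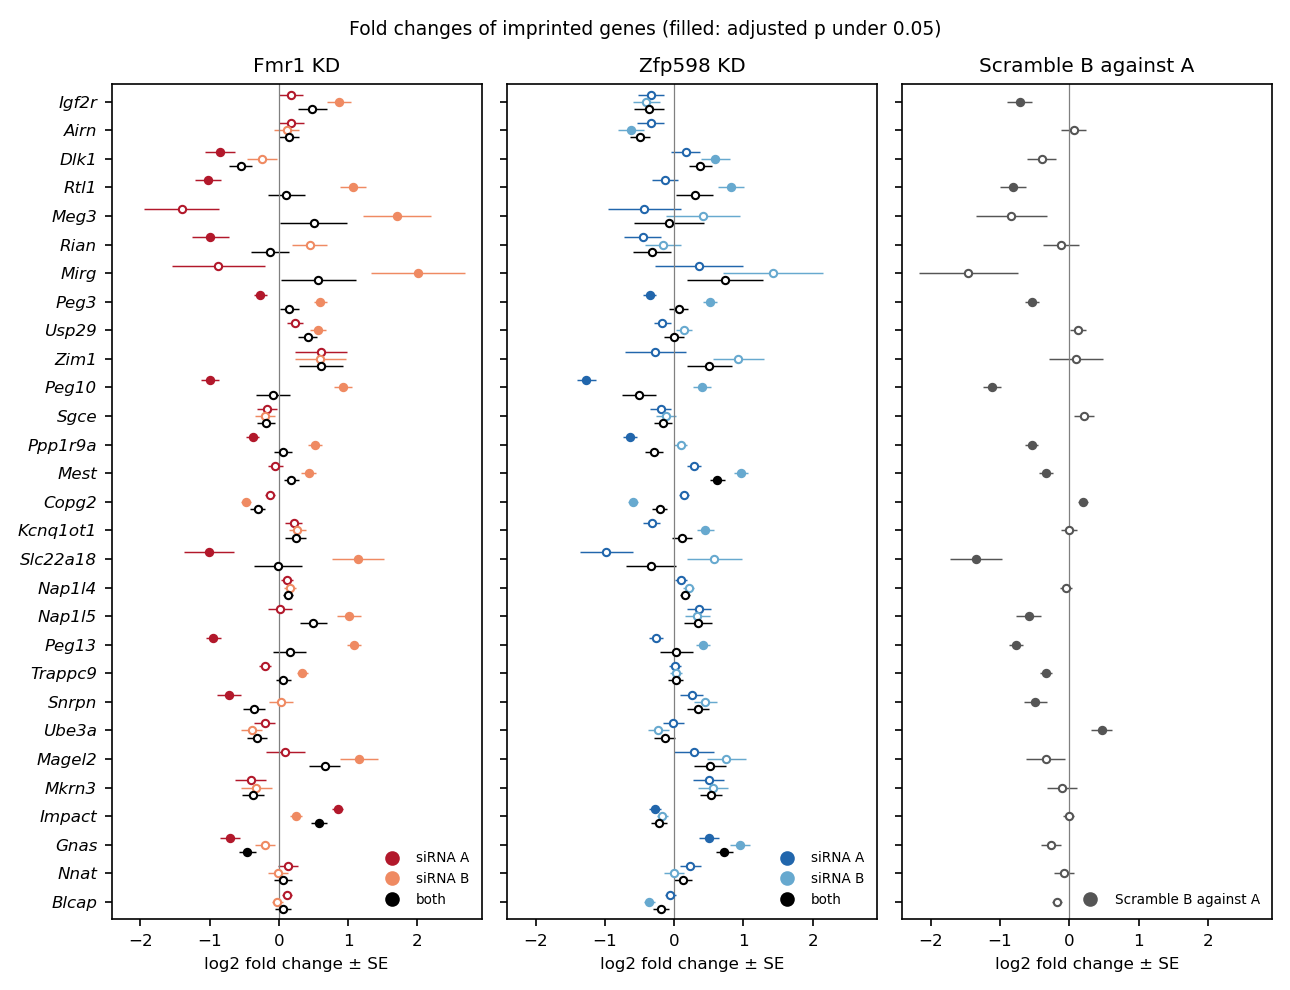
Log2 fold changes with standard errors of the 29 members other than *Grb10*, for each siRNA and for both pooled, and for Scramble siRNA B against A, with filled points at an edgeR adjusted p under 0.05. With *Fmr1* siRNA A 10 filled points lie below 0 and with *Fmr1* siRNA B 15 lie above it, while the pooled comparison has 1 on either side.

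*Peg10* differed most between siRNAs in its domain. *Peg10* and *Sgce*, which encodes epsilon-sarcoglycan, are both paternally expressed and start 98 bases apart on opposite strands, at chr6:4747208-4747305 of GRCm39. The stretch between their starts is shown because both genes share it while their levels did not move together (CpG dinucleotides in capitals, plus strand).
Sgce to Peg10: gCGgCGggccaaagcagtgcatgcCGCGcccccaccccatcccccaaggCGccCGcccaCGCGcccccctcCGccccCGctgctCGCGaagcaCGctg
It holds 13 CpG, or 13.3 per 100 bases, where the median of 172 such gaps of 50 to 200 bases between divergent protein-coding genes is 6.18. *Peg10* was at 372, 434 and 347 CPM with Scramble siRNA A and at 177, 216 and 141 with Scramble siRNA B. It was at 179, 215 and 185 with *Fmr1* siRNA A, 343, 338 and 332 with *Fmr1* siRNA B, 175, 159 and 144 with *Zfp598* siRNA A and 238, 267 and 201 with *Zfp598* siRNA B. Scramble siRNA A and *Fmr1* siRNA B thus formed a high group that did not overlap the other 4 siRNAs. Scramble siRNA B was lower than Scramble siRNA A by a log2 difference of -1.11 (SE 0.13, edgeR adjusted p = 4.4e-06). Against the Scramble siRNA of the same letter, the log2 fold change was -0.99 with *Fmr1* siRNA A and 0.92 with *Fmr1* siRNA B (adjusted p = 1.09e-05 and 3.16e-05), and 0.92 for the latter without replicate 1.

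*Sgce* stayed between 39.8 and 76.0 CPM in all 18 libraries and was called in none of the comparisons. The count ratio of *Peg10* to *Sgce* was 5.72 to 6.92 with Scramble siRNA A and 2.06 to 2.88 with Scramble siRNA B, without overlap, and the exact permutation p of 0.1 (two-sided) is the smallest that 3 against 3 libraries allow. With the siRNAs pooled, the ratio did not separate *Fmr1* KD or *Zfp598* KD from Scramble KD, with two-sided exact permutation p-values of 0.654 and 0.455 for 6 libraries against 6. Adjusted over 12 such ratio tests, the 3 values were 0.2, 0.713 and 0.652. *Ppp1r9a*, a maternally expressed neurabin gene farther along the same domain, was at 60.5 to 65.6 CPM with Scramble siRNA A and 41.7 to 45.9 with Scramble siRNA B. Its log2 fold changes were -0.38 and 0.52 with *Fmr1* siRNA A and B (edgeR adjusted p = 0.00649 and 0.000494). Without *Fmr1* siRNA B replicate 1 the latter was 0.48, and against all 6 Scramble KD libraries the former was -0.11 and lost its call (adjusted p = 0.38).

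A similar divergent pair is *Peg3* and *Usp29*, both paternally expressed, whose starts enclose 108 bases at chr7:6733469-6733576 of GRCm39. It is shown for comparison with the first (CpG in capitals, plus strand).
Peg3 to Usp29: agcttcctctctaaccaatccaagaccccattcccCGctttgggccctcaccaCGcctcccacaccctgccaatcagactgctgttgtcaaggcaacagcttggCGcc
It holds 3 CpG, or 2.78 per 100 bases, a density that 15.7% of the 172 gaps do not exceed, against 94.8% for that of *Sgce* and *Peg10*. *Peg3* was at 605, 740 and 626 CPM with Scramble siRNA A, 461, 472 and 427 with Scramble siRNA B, 535, 558 and 545 with *Fmr1* siRNA A and 638, 689 and 729 with *Fmr1* siRNA B. The Scramble siRNAs did not overlap, with a log2 difference of -0.54 (SE 0.10, edgeR adjusted p = 0.000387), while *Usp29* differed between them by 0.13 (adjusted p = 0.491). With *Fmr1* siRNA B both rose, *Peg3* by 0.60 and *Usp29* by 0.56 on the log2 scale (adjusted p = 0.000136 and 0.00141), and both calls held without replicate 1, at 0.65 and 0.60. *Peg3* was at 598, 472 and 473 CPM with *Zfp598* siRNA A and 628, 637 and 683 with *Zfp598* siRNA B. The fall with *Fmr1* siRNA A (-0.27, adjusted p = 0.05) was 0.00 against all 6 Scramble KD libraries, and 5 of 6 single libraries decided its call: *Fmr1* siRNA A replicate 1, 2 or 3 and Scramble siRNA A replicate 2 or 3. The maternally expressed neighbour *Zim1* was at 0.529 to 2.38 CPM and was called in no comparison of a KD with a control.

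In the *Dlk1*-*Meg3* domain the paternally expressed genes and the maternally expressed noncoding RNAs were read from the same region of chromosome 12. *Dlk1*, a membrane ligand of the Notch family that restrains differentiation, was at 4.74 to 7.84 CPM in Scramble KD, 3.33 to 5.29 after knockdown of *Fmr1* and 5.11 to 9.78 after that of *Zfp598*. It fell with *Fmr1* siRNA A by 0.84 on the log2 scale (SE 0.22, edgeR adjusted p = 0.00659), and pooled over both siRNAs the log2 fold change was -0.55 (adjusted p = 0.054, and -0.53 with adjusted p = 0.0985 without *Fmr1* siRNA B replicate 1). With *Zfp598* siRNA B the log2 fold change was 0.59 (adjusted p = 0.0386), a call lost without Scramble siRNA B replicate 1 or 3 or *Zfp598* siRNA B replicate 1 or 3.

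*Rtl1*, a coding gene derived from a retrotransposon, was at 11.1, 9.47 and 8.21 CPM with Scramble siRNA A and 5.59, 6.35 and 4.47 with Scramble siRNA B. It was at 4.12, 3.67 and 6.36 with *Fmr1* siRNA A and at 11.5, 11.4 and 11.5 with *Fmr1* siRNA B. The *Fmr1* siRNAs did not overlap, and against their controls the log2 fold changes were -1.02 and 1.07 (SE 0.19 and 0.19, edgeR adjusted p = 0.000483 and 0.00026), the latter 1.08 without replicate 1. The difference between them, 2.09 (adjusted p = 9.77e-06), was 2.10 without *Fmr1* siRNA B replicate 1 (adjusted p = 3.75e-05). It was 8.65, 7.78 and 9.96 CPM with *Zfp598* siRNA A and 10.1, 8.23 and 10.6 with *Zfp598* siRNA B.

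*Rtl1* is read against microRNAs of the maternal transcript: 7 hairpins lie within its exons on the opposite strand and take 627 of their bases. These are shown because they mark where reads of *Rtl1* and of the maternal precursor fall on the same bases (RefSeq mature sequences found by exact match on GRCm39, chromosome 12, plus strand, seed in capitals).
mmu-miR-431-5p: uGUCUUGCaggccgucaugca
mmu-miR-433-3p: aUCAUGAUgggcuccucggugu
mmu-miR-127-3p: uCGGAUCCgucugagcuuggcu
mmu-miR-434-3p: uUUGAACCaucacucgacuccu
mmu-miR-136-5p: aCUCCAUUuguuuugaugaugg
The 13 mature arms within *Rtl1* exons have 13 different seeds. Their levels cannot be read from these libraries, since long RNA was sequenced, and 6 of the 7 hairpins had 0 counts in every library.

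Of the noncoding RNAs of the domain, *Rian* fell with *Fmr1* siRNA A, and *Meg3* and *Mirg* were called higher with *Fmr1* siRNA B only while its replicate 1 was included. *Rian* was at 22.4, 25.4 and 22.4 CPM with Scramble siRNA A and 10.7, 13.6 and 11.0 with *Fmr1* siRNA A, a log2 fold change of -0.99 (SE 0.27, edgeR adjusted p = 0.0101). *Meg3* was at 2.11, 3.06 and 1.85 CPM with Scramble siRNA B and 16.7, 3.43 and 2.68 with *Fmr1* siRNA B. Its log2 fold change of 1.71 (adjusted p = 0.0147) fell to 0.40 (adjusted p = 0.446) without replicate 1, and that of *Mirg* from 2.01 (adjusted p = 0.0377) to 0.69 (adjusted p = 0.528). Without that library the difference between the *Fmr1* siRNAs was still 1.80 for *Meg3* and 0.93 for *Rian* (adjusted p = 0.00654 and 0.0229), and for *Mirg* it was 1.57 (adjusted p = 0.217). In pooled *Fmr1* KD the sign of *Meg3* rested on this library, at 0.50 with it and -0.58 without it (adjusted p = 0.6 and 0.274), and so did that of *Mirg*, at 0.57 and -0.27 (adjusted p = 0.588 and 0.804).

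*Mest* and *Copg2* overlap tail to tail, with 3850 exonic bases shared on opposite strands of chromosome 6, so where the counting ignored strand, reads there could count for neither or either. *Copg2* was at 196, 188 and 179 CPM with Scramble siRNA B and 123, 122 and 128 with *Zfp598* siRNA B, without overlap and with a log2 fold change of -0.60 (SE 0.07, edgeR adjusted p = 4.96e-06). With *Fmr1* siRNA B it was at 136, 142 and 128 CPM (-0.47, adjusted p = 6.87e-05, and -0.47 without replicate 1). The count ratio of *Mest* to *Copg2* was 1.52 to 2.68 in Scramble KD, 2.46 to 3.57 after knockdown of *Fmr1* and 2.49 to 5.25 after that of *Zfp598*, with its highest values, 4.81 to 5.25, with *Zfp598* siRNA B. By siRNA, it was 2.31 to 2.68 with Scramble siRNA A and 1.52 to 1.90 with Scramble siRNA B. With *Fmr1* siRNA A and *Zfp598* siRNA A it was 2.46 to 2.78 and 2.49 to 3.19, overlapping Scramble siRNA A. With *Fmr1* siRNA B it was 2.85 to 3.57. Two-sided exact permutation p-values of the ratio for 6 libraries against 6 were 0.00866 and 0.0108, or 0.0649 each after Benjamini-Hochberg adjustment over the 12 ratio tests. This test treats the 6 libraries of a condition as interchangeable, although its siRNAs differed.

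*Peg13*, a paternally expressed noncoding RNA within an intron of the maternally biased gene *Trappc9*, was among the members that differed most among the siRNAs. It was at 78.9, 68.7 and 73.7 CPM with Scramble siRNA A, 43.0, 48.6 and 37.7 with Scramble siRNA B, 39, 36.4 and 39.4 with *Fmr1* siRNA A and 83.6, 92.3 and 99.1 with *Fmr1* siRNA B. The ranges of the *Fmr1* siRNAs were far apart, on either side of *Zfp598* KD, which was at 53.6 to 69.6 CPM. The log2 fold change was -0.95 with *Fmr1* siRNA A and 1.09 with *Fmr1* siRNA B (SE 0.10 each, edgeR adjusted p = 1.26e-06 and 2.22e-07), and 1.16 for the latter without replicate 1. *Trappc9*, a subunit of a vesicle trafficking complex, moved less: 110 to 129 CPM with Scramble siRNA A, 87.6 to 101 with Scramble siRNA B, and a log2 fold change of 0.34 with *Fmr1* siRNA B (adjusted p = 0.00538), which was 0.40 without replicate 1 and 0.17 against all 6 Scramble KD libraries (adjusted p = 0.103). The annotation gives the pair 1293 shared exonic bases on the same strand.

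*Kcnq1ot1* was at 237 to 301 CPM in Scramble KD and at 390, 352 and 332 with *Zfp598* siRNA B, a log2 fold change of 0.45 (SE 0.12, edgeR adjusted p = 0.009). With *Zfp598* siRNA A it was at 252, 192 and 185 (-0.32, adjusted p = 0.0893), and the siRNAs differed by 0.77 (adjusted p = 0.00275). Among the genes of its domain, the histone chaperone gene *Nap1l4* was at 76.0 to 98.2 CPM in all libraries and was called in none of the comparisons, and the transporter gene *Slc22a18* was low and variable, at 0.592 to 3.26 CPM. *Slc22a18* was called lower with *Fmr1* siRNA A and higher with *Fmr1* siRNA B (log2 fold change -1.0 and 1.14), the latter 1.41 without replicate 1. Neither call held against all 6 Scramble KD libraries (edgeR adjusted p = 0.503 and 0.313), and leaving out a library lost them in 5 and 4 of 6 fits.

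*Igf2r*, the receptor that clears IGF2, was at 9.98 to 12.6 CPM with Scramble siRNA A and 6.20 to 7.59 with Scramble siRNA B. With *Fmr1* siRNA B it was at 14.8, 11.0 and 11.3 CPM, a log2 fold change of 0.87 (SE 0.18, edgeR adjusted p = 0.00121), and of 0.73 without replicate 1 (adjusted p = 0.011). The paternal antisense RNA *Airn* was at 6.61 to 11.7 CPM in Scramble KD and 5.62 to 8.57 in *Zfp598* KD. Its log2 fold change was -0.63 with *Zfp598* siRNA B (adjusted p = 0.0175), a call lost without Scramble siRNA B replicate 1 or 2 or *Zfp598* siRNA B replicate 2 or 3.

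Of the Prader-Willi and Angelman region, *Snrpn*, *Ube3a*, *Magel2* and *Mkrn3* were measured. *Snrpn*, which encodes a core spliceosomal protein, was at 19.5 to 20.8 CPM with *Fmr1* siRNA A against 27.4 to 36.7 with Scramble siRNA A, a log2 fold change of -0.72 (SE 0.17, edgeR adjusted p = 0.00357). *Ube3a*, the ubiquitin ligase lost in Angelman syndrome, was at 172 to 216 CPM with Scramble siRNA A and 255 to 278 with Scramble siRNA B, and passed in no comparison of a KD with a control. It shares 1803 exonic bases with *Snhg14* on the opposite strand. *Magel2* was at 0.922 to 2.20 CPM in Scramble KD and at 3.04, 2.73 and 4.33 with *Fmr1* siRNA B (log2 fold change 1.16, SE 0.27, adjusted p = 0.00353, and 1.23 without replicate 1). *Mkrn3* was at 21.5 to 37.6 CPM in Scramble KD, 20.2 to 25.2 after knockdown of *Fmr1* and 25 to 59.4 after that of *Zfp598*, where its pooled log2 fold change of 0.54 had an adjusted p of 0.0813.

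The remaining pair and single gene passed with 1 KD siRNA at most. *Nnat*, a membrane proteolipid of neurons that lies within an intron of *Blcap*, was at 13 to 22.6 CPM and was called nowhere. *Blcap* was at 97.2 to 120 CPM in Scramble KD and 80.0, 76.9 and 78.9 with *Zfp598* siRNA B, below all other libraries, with a log2 fold change of -0.36 (SE 0.08, edgeR adjusted p = 0.00151). *Nap1l5* was at 12.8, 10.2 and 14.1 CPM with Scramble siRNA B and 19.6, 23.2 and 32.1 with *Fmr1* siRNA B (log2 fold change 1.01, SE 0.18, adjusted p = 0.000284, and 1.17 without replicate 1).

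*Grb10*, an adaptor that restrains signalling by the insulin and IGF receptors, lies at chr11:11880498-11988683 on the minus strand, between *Ddc* and *Cobl*. It was at 0.793, 0.530 and 0.283 CPM with Scramble siRNA A and 0.132, 0.292 and 0.256 with Scramble siRNA B. It was at 1.28, 1.15 and 1.18 CPM with *Fmr1* siRNA A, 4.11, 0.700 and 0.343 with *Fmr1* siRNA B, 0.977, 0 and 0.534 with *Zfp598* siRNA A and 3.72, 4.16 and 2.47 with *Zfp598* siRNA B. The highest values were thus those of *Zfp598* siRNA B and of *Fmr1* siRNA B replicate 1, and *Zfp598* siRNA A and the other libraries of *Fmr1* siRNA B overlapped Scramble KD. The mean was 0.381 CPM (SD 0.24, n = 6) in Scramble KD, 1.46 (SD 1.35, n = 6) in *Fmr1* KD and 1.98 (SD 1.73, n = 6) in *Zfp598* KD, and *Fmr1* KD without replicate 1 of siRNA B had 0.933 (SD 0.40, n = 5). As a description, the log2 fold change was 1.96 in *Fmr1* KD, 1.32 without that replicate, and 2.46 in *Zfp598* KD. The count of 0 in *Zfp598* siRNA A replicate 2 allows up to 0.32 CPM.

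Its neighbours behaved differently from each other. *Ddc*, the aromatic amino acid decarboxylase of catecholamine synthesis, which shares an imprinted domain with *Grb10* in mice, was at 21.3 to 24.3 CPM with *Zfp598* siRNA B and 1.09 to 5.26 in all other libraries. Its log2 fold change with that siRNA was 4.19 (SE 0.22, edgeR adjusted p = 7.37e-11), 0.33 with the other siRNA of the target (adjusted p = 0.379), and with *Fmr1* siRNA A and B -0.21 and 1.62 (adjusted p = 0.569 and 5.87e-05), the latter 1.51 without replicate 1 (adjusted p = 0.000547). *Cobl* had 114 counts in *Fmr1* siRNA B replicate 1, 1 count in a *Zfp598* siRNA B library and 0 elsewhere, so the libraries with the highest *Grb10* differed in *Cobl*.

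Other imprinted genes and their neighbours, 40 genes of which 19 passed the filter, gave few pooled calls. In *Fmr1* KD *Begain* was lower (log2 fold change -1.03, SE 0.21, edgeR adjusted p = 0.00459, and -0.95 without *Fmr1* siRNA B replicate 1), and in *Zfp598* KD *Ddc* was higher and *Ago2* lower (-0.52, SE 0.11, adjusted p = 0.0188). Of 20 tested genes that maintain imprints or set DNA methylation, the demethylating dioxygenase genes *Tet1* and *Tet3* were higher in *Fmr1* KD (log2 fold change 2.08 and 0.39, adjusted p = 0.0231 and 0.00425), and none were called in *Zfp598* KD. Without *Fmr1* siRNA B replicate 1 *Tet1* was at 0.79 and lost its call (adjusted p = 0.0586), and *Tet3* was at 0.43 (adjusted p = 0.00344). Between the Scramble siRNAs 7 of these 20 were higher with siRNA B and 1 lower. Among 18 tested genes of insulin and IGF signalling, the pathway of *Grb10*, *Igf2* and *Igf2r*, the adaptor gene *Shc1* was higher in *Fmr1* KD (log2 fold change 0.48, SE 0.09, adjusted p = 0.00201, and 0.48 without that replicate), and none were called in *Zfp598* KD.

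Promoters of the imprinted genes held more CpG at the median than promoters over all genes, but ranged from 0 CpG (*Rian*) to 48 (*Ppp1r9a*). RefSeq promoter windows of 300 bases (250 before and 50 after the start, GRCm38.p6) were found for 31 of the 40 members, with a median of 13 CpG each, against 7 over all 27025 windows, and 58.1% of them against 41.9% held more than 10.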

How the data were processed

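The deposited table held raw counts of reads per gene, which the authors made from rRNA-depleted total RNA of 18 libraries with Trim Galore, STAR and featureCounts on GRCm39. The annotation release and the strand setting were not given in the sources used here, and gene names, exon lengths and positions were taken from GENCODE M39, which held 98.8% of the IDs. The members and gene lists were chosen with earlier results of these data known. Genes were kept with edgeR's filterByExpr (minimum count 10, minimum total count 15), which left 17901 genes. Counts were scaled by TMM and tested with the quasi-likelihood test of edgeR 4.0.16 in R 4.3.3, with Benjamini-Hochberg adjustment over all tested genes and a threshold of 0.05, in a fit with condition as the only term (both siRNAs pooled) and in a fit of the 6 siRNAs. SE is the log2 fold change divided by the root of the F statistic. CPM used TMM library sizes. Ratios of counts were compared with exact permutation tests.

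The fits were also run on simulated counts. In those used for the pooled fit, the siRNAs of a condition did not differ, so its handling of such differences was not checked. All 40 members were accounted for. By rule, levels in every siRNA group were given for *Grb10*, for the 2 targets, for members called in a pooled comparison or among the 6 siRNAs (at most 20, by adjusted p) and for the 3 most abundant members. Other values were added by domain after the data were seen. Replicate numbers were not treated as pairs: same-numbered libraries correlated at -0.680 to 0.639 with their control in deviation from the group mean, and 7 of 12 pairs were over 0.1. Libraries of a siRNA differed by more than sampling noise (the lowest chi-square divided by its degrees of freedom was 2.80). Alternatives were DESeq2 1.42.0, its size factors, no filter, the siRNA letter or the replicate number as a term, summed counts per siRNA, a 2-fold criterion, all Scramble KD libraries as control, and leaving out each library.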

Additional observations from a re-analysis of the deposited data

Results flagged for a closer look

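In 9 of 93 groups of 6 libraries, *Grb10* not included, a library lay far from the others by Dixon's criterion. Chance meets it in about 1 of 20 groups drawn from a single normal distribution. These groups mixed 2 siRNAs and some held values at 0, so that rate does not hold for them. *Fmr1* siRNA B replicate 1 was that library for *Slc38a4* (6.34 CPM, next 0), *Plagl1* (3.24, next 0.0676), *Meg3* (16.7, next 3.43), *Rian* (47.0, next 20.8) and *Mirg* (3.84, next 0.910). The others were *Rian* in Scramble siRNA B replicate 3 (16 CPM, nearest 22.4), *Plagl1* in Scramble siRNA B replicate 2 (0.0730, the others 0), *Slc22a18* in *Zfp598* siRNA B replicate 1 (1.79, nearest 1.44) and *Snrpn* in *Fmr1* siRNA B replicate 3 (31.0, nearest 20.8).

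The effect of *Fmr1* KD differed between siRNA B and siRNA A, by the edgeR test of the difference, in 15 members. The log2 difference was 3.11 for *Meg3*, 2.88 for *Mirg*, 2.15 for *Slc22a18*, 2.09 for *Rtl1*, 2.04 for *Peg13*, 1.92 for *Peg10*, 1.43 for *Rian*, 1.00 for *Nap1l5*, 0.90 for *Ppp1r9a*, 0.86 for *Peg3*, 0.75 for *Snrpn*, 0.54 for *Trappc9*, 0.48 for *Mest*, -0.34 for *Copg2* and -0.60 for *Impact*. The effect of *Zfp598* KD differed in 10 members, by 1.67 for *Peg10*, 1.56 for *Slc22a18*, 0.95 for *Rtl1*, 0.87 for *Peg3*, 0.77 for *Kcnq1ot1*, 0.73 for *Ppp1r9a*, 0.68 for *Mest*, 0.68 for *Peg13*, -0.30 for *Blcap* and -0.73 for *Copg2*. Of these, the difference for *Blcap* lost its call in 12 of 12 fits that left out a library and with the replicate block, and that for *Slc22a18* in 11 of 12 and with the replicate block. In *Fmr1* KD the differences for *Mirg*, *Snrpn*, *Copg2* and *Mest* lost their call in 7, 6, 4 and 3 of 12 such fits.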

How the results depend on the processing

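Followed were the fold changes of all members in the pooled comparisons and, in the other comparisons, of those called in the main fit. *Grb10*, not tested, entered by its fold change only. When a library was left out, 1268 kept their direction and, where tested, their side of the threshold. A further 126 lost their call, 5 gained one and 3 reversed direction. Under the other alternatives 752 kept both, 28 lost their call, 7 gained one and 4 reversed direction. Gains were thus counted in the pooled comparisons only, although the count with *Zfp598* siRNA A rose to 11 without its replicate 1. The cause of these changes was not tested. Of the 29 members, 2 were called in *Fmr1* KD, against 4 with DESeq2, 5 with the siRNA letter as a term, 0 with counts summed per siRNA and 0 with the 2-fold criterion. The 2 called in *Zfp598* KD became 4 with DESeq2, 0 with counts summed per siRNA and 0 with the 2-fold criterion. The 5 called with *Zfp598* siRNA A became 9 against all 6 Scramble KD libraries and 3 without its replicates 2 and 3, the latter chosen after seeing the data. Leaving out each library gave 1 to 3 members in *Fmr1* KD, 2 to 4 in *Zfp598* KD, 9 to 10 and 13 to 14 with *Fmr1* siRNA A and B, 2 to 11 and 8 to 10 with *Zfp598* siRNA A and B, 7 to 13 between the Scramble siRNAs, 12 to 17 and 8 to 9 for the differences between siRNAs in *Fmr1* KD and *Zfp598* KD, and 23 to 27 among the 6 siRNAs. With the replicate block, the counts in the same order were 2, 2, 10, 17, 6, 12, 13, 15, 8 and 25.

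Against all 6 Scramble KD libraries the log2 fold change of *Peg3* with *Fmr1* siRNA A was 0.00116 and that of *Peg10* with *Zfp598* siRNA B was -0.15. With that control *Mirg* with *Fmr1* siRNA B lost its call (edgeR adjusted p = 0.0984), beside the members named in the report. In pooled *Fmr1* KD, *Dlk1* and *Usp29* gained a call with DESeq2 (adjusted p = 0.0256 and 0.036), and *Igf2r*, *Dlk1* and *Usp29* with the siRNA letter as a term (0.0406, 0.0432 and 0.0182). *Airn* and *Mkrn3* gained one in pooled *Zfp598* KD with DESeq2 (0.0291 and 0.0299). *Grb10* with *Zfp598* siRNA A, at 0.07, was -0.00665 with DESeq2, -0.14 with the replicate block, -0.25 without Scramble siRNA A replicate 3 and -1.32 and 0.64 without *Zfp598* siRNA A replicate 1 and 2. Its difference between the *Fmr1* siRNAs, at 1.70, was -0.00774 without *Fmr1* siRNA B replicate 1 and 2.18 without replicate 3. Depth limits members under about 1 CPM, where 3 counts correspond to 0.192 to 0.534 CPM.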
